A study of Mus musculus with 2 samples.

Results

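The 9 genes described here mark mast cells and basophils and were taken by symbol from the 32285 genes measured: Mcpt8, Gzmb, Prss34, Ms4a2, Fcer1a, Cpa3, Hdc, Il1rl1 and Cma1. They are 9 of 32285 features, all 9 were present in both libraries, and each was followed by its level, by the share of cells with a UMI (1 counted RNA molecule) and by co-expression across progenitor types and genotypes. The libraries held single Lin- Kit+ cells, a gate for blood stem and progenitor cells, from the liver of C57BL/6 mouse embryos at E14.5. One library came from CD45.2(+) Vav1-iCre Brd9fl/fl embryos (knockout), in which a Cre recombinase active in blood cells acts on floxed Brd9, and 1 from CD45.2(+) Brd9fl/fl embryos (control), which carry the floxed alleles without the recombinase. Brd9 is a bromodomain subunit of a BAF chromatin remodelling complex, and the comparison asks what its loss changes in fetal progenitors. There was no library with the recombinase alone, so effects of the recombinase itself and of losing Brd9 cannot be told apart. How many embryos were pooled is not stated in the sources used here.

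Mast cells and basophils are granulated blood cells of the allergic response. They carry the high-affinity IgE receptor, store histamine bound to the proteoglycan serglycin, and pack serine proteases and carboxypeptidase into their granules. Both arise from progenitors that express Gata2 and overlap with granulocyte-monocyte and megakaryocyte-erythroid progenitors, so single genes of this set are also switched on in cells that become neither. Of the 9 genes, Ms4a2 and Fcer1a encode the beta and alpha chains of the IgE receptor, Il1rl1 encodes the receptor for the alarmin IL-33, and Hdc encodes histidine decarboxylase, the enzyme that makes histamine. Mcpt8 and Prss34 encode basophil proteases, Cpa3 the mast cell carboxypeptidase, Cma1 a chymase of connective tissue mast cells, and Gzmb granzyme B, a protease shared with cytotoxic lymphocytes.

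The filters left 6754 cells of the knockout and 6882 of the control, at median depths of 36001.5 and 38508 UMIs. Brd9 itself was at 7.07 CPM (UMIs scaled to a library total of 1000000) in the knockout and 27.2 in the control, a log2 ratio of -1.95 (95% interval -2.02 to -1.87). The sources used here do not say whether the counted 3' ends lie inside the deleted part. The embryos pooled in each library differed in sex: 58.9% of knockout and 22.9% of control cells were female by Xist and Y-linked transcripts, so values within each sex stand beside many of the results. The libraries shared 15 cell barcodes. With 1 library per genotype there was no replicate and no test. Ratios are knockout over control, intervals cover counting error only, and UMIs of 1 cell are not independent, so spread between embryos is unknown. Shares of positive cells were taken after thinning every cell to 18501 UMIs, which left 6389 knockout and 6566 control cells.

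By position, in mm10 coordinates of the GENCODE M21 annotation, 3 of the protease genes lie on the minus strand of chromosome 14: Cma1 at chr14:55941451-55944675, Mcpt8 at chr14:56082166-56085273 and Gzmb at chr14:56258838-56262260. Il1rl1 lies at chr1:40429570-40465415 (plus strand), Fcer1a at chr1:173221284-173227214 (minus), Ms4a2 at chr19:11615523-11623719 (minus), Cpa3 at chr3:20215620-20242181 (minus), Hdc at chr2:126593667-126619299 (minus) and Prss34 at chr17:25298394-25300165 (plus). Mcpt8, Cma1, Gzmb and Prss34 have related genes beside them, and the sources used here do not say how reads shared between such relatives were counted.

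Promoter sequences of 4 members are shown here because the values below turn on these genes: Ms4a2, which was lower in the knockout, Cpa3, which was not, Mcpt8, which was lower in one cell class and higher in others, and Il1rl1, which is known for a distal and a proximal promoter. Each run covers 250 bases before to 50 after a transcript start in RefSeq on GRCm38.p6, the mm10 build of the files, and is written 5′ to 3′ on the gene's strand. Capitals mark GATAA or its reverse complement TTATC, the core of sites read by GATA factors.
Ms4a2, chr19:11623670-11623969, minus strand: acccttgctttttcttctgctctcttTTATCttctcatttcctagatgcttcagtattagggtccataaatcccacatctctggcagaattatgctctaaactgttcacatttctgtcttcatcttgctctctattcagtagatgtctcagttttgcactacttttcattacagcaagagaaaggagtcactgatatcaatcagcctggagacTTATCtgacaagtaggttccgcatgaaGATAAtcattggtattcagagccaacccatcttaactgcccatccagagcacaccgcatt
Cpa3, chr3:20242132-20242431, minus strand: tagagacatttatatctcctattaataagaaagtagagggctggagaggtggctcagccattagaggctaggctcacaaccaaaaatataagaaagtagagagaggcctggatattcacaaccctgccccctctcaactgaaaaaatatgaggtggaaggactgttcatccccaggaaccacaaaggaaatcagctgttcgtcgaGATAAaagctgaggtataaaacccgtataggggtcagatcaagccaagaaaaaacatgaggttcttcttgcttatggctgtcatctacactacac
Mcpt8, chr14:56085148-56085447, minus strand: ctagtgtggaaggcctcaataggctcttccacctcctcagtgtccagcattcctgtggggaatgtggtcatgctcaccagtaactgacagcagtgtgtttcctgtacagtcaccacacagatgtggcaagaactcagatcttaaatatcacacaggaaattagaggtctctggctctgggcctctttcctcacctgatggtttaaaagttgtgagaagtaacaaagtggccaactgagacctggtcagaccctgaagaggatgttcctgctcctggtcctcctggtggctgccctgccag
Il1rl1 distal start, chr1:40429320-40429619, plus strand: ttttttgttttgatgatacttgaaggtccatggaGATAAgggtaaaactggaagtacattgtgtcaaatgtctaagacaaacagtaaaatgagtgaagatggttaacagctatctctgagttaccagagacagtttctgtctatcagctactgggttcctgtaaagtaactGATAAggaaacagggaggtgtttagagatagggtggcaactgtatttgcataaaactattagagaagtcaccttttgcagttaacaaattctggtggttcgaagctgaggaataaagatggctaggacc
Il1rl1 proximal start, chr1:40439379-40439678, plus strand: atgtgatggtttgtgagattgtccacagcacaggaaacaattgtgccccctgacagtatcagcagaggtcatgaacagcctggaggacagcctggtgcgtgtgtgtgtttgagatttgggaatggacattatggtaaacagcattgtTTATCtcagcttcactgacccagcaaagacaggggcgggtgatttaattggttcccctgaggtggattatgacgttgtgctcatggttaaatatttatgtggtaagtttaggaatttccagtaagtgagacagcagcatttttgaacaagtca
Ms4a2 holds 3 matches, the distal Il1rl1 start 2, and the proximal Il1rl1 start and Cpa3 1 each, while Mcpt8 holds 0. Over the 10 member entries, 2 of them for Il1rl1, 7 hold GATAA on either strand, against 25.4% of 32851 promoters of the same length. TGTGGT, a core read by RUNX factors, is in 6 of the 10 entries and in 16.8% of all promoters. TTCNNNGAA, a core read by STAT factors, is in 1 entry, that of Gzmb, and in 8.30% of all. Matches are letters in a window, and no binding was measured.

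The cells in which the 9 genes could be read together were found without them. Cells were clustered with the 9 genes left out, and 1 cluster was named mast- and basophil-like from a list of 20 other markers. Lmo4 and Alox5, of that list, stood among its 10 leading genes, beside Gata2, Ifitm1 and Cd63. It held 202 knockout cells (2.99%) and 116 control cells (1.69%), a ratio of shares of 1.77 (1.42 to 2.22). Of the 20 markers, 12 reached 20 CPM there, while the mast cell proteases Tpsb2, Tpsab1 and Mcpt4 were at 0 UMIs in the class in both libraries. These 3 proteases mark mature mast cells. Its cells also held transcripts of other lineages. The summed level of 15 erythroid markers was 339 CPM in the knockout and 791 in the control, that of 9 megakaryocyte-erythroid markers 1510 and 2333, and that of 9 granulocyte-monocyte progenitor markers 5230 and 5848. The 20 mast cell and basophil markers summed to 4102 and 4324 CPM. Of the other 3 lists, in the same order, 11, 8 and 8 markers also reached 20 CPM. The median depth of the class was 25079.5 and 31260.5 UMIs per cell. The part of these differences in the levels below was not tested.

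Taken by where their UMIs lay, the 9 genes did not all mark this class. Fcer1a did, with 95.8% of its UMIs there in both libraries, as did Prss34 (90.5% in the knockout, 81.6% in the control) and Ms4a2 (82.4% and 77.5%). Cpa3 did not: granulocyte-monocyte progenitors (GMP) held 45.7% and 46.3% of its UMIs and the class 31.7% and 30.5%. GMP were 6.90% and 7.08% of cells and the class 2.99% and 1.69%. By level Cpa3 stood higher in the class, at 527 and 522 CPM against 289 and 184 in GMP. Hdc was spread over the class (46.5% and 32.4%), GMP (30.6% and 25.2%) and an unnamed cluster led by S100a9 and S100a8 (13.1% and 31.5%), genes of maturing granulocytes. Il1rl1 lay mostly in erythroid cells in the control, with 58.3% of its UMIs, against 30.6% in the knockout. Erythroid cells were 52.2% of knockout and 54.7% of control cells, so the control value was near their share of cells. Their control level of Il1rl1 was 9.29 CPM, against 9.28 over the control library and 64.7 in the class. Gzmb and Cma1 lay outside the class, in a small unnamed cluster led by Ifitm1, Pde7b, Trbc1 and Lmo4, with 73.9% and 76.8% of Gzmb UMIs and 100% and 80% of Cma1 UMIs. In that small cluster 13 of the 20 mast cell and basophil markers reached 20 CPM, against 12 in the class. The UMIs of Ms4a2, Fcer1a and Prss34 thus lay mostly in the class in both libraries, and those of Mcpt8 in the control alone (72.0%). Of the 71 thinned control cells with an Mcpt8 UMI, 14 were in the class. A single cell held 82 of the 486 control UMIs of Mcpt8.

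**Figure D1:**
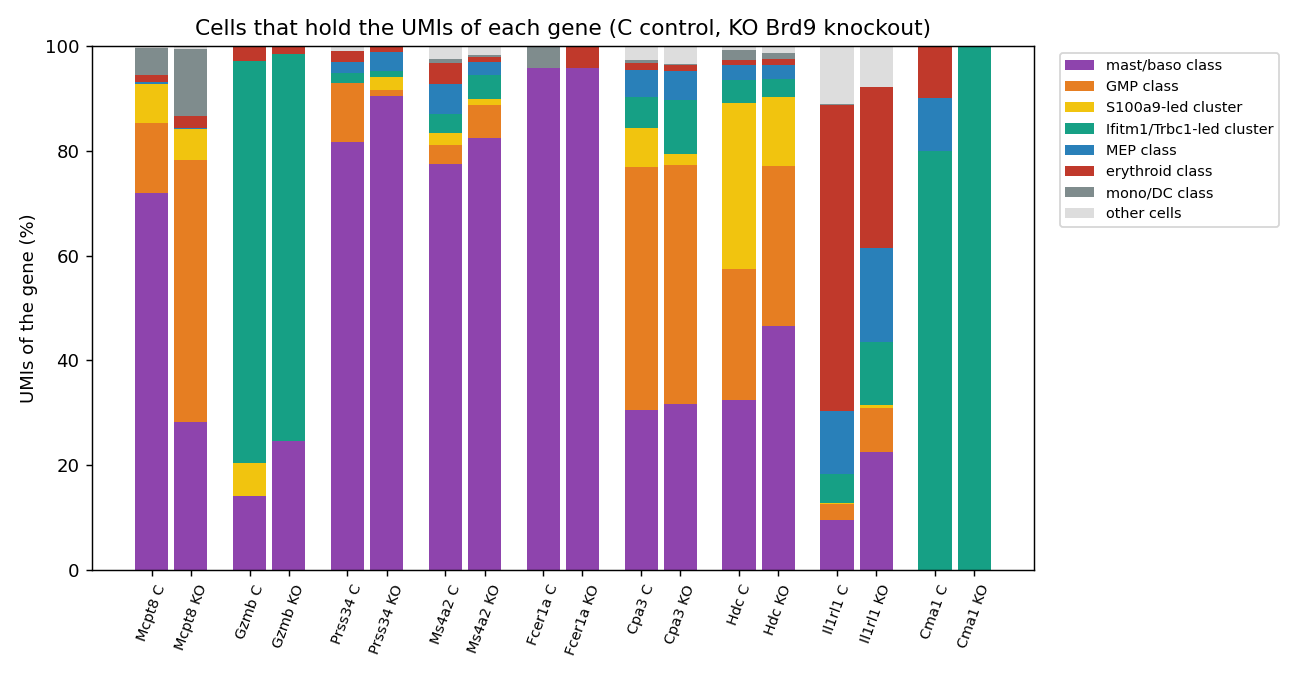
Stacked bars of where each gene's UMIs lay (y axis, percent of the gene's UMIs in that library), with 1 bar per gene and library on the x axis and 1 colour per class or unnamed cluster. Mcpt8 shows 28.2% of its knockout UMIs in the mast- and basophil-like class against 72.0% in the control, and Il1rl1 shows 30.6% in erythroid cells against 58.3%.

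Over whole libraries the 9 genes went in different directions. Of the 5 with at least 1 CPM in either library, 3 were lower in the knockout by more than 0.5 on the log2 scale and 1 was higher, where 2.74% and 2.38% of all 11796 such genes were. The 3 were Mcpt8, Ms4a2 and Il1rl1, and the 1 was Cpa3. At a minimum of 20 CPM, 2 members remained, with Cpa3 higher (0.418% of 6223 genes were) and 0 lower (0.884% were). The summed level of the 9 genes did not separate the libraries, with a log2 ratio of -0.02 (-0.05 to 0.01).

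Cpa3, the most counted of the 9, gave 8780 knockout and 6477 control UMIs, or 34.5 and 23.5 CPM, a log2 ratio of 0.56 (0.51 to 0.60). Its share of cells was 9.66% and 8.79%, a ratio of 1.10 (0.986 to 1.22). Positive cells held a mean of 10.5 and 8.14 UMIs before thinning. Il1rl1 gave 1162 and 2561 UMIs, or 4.57 and 9.28 CPM, a log2 ratio of -1.02 (-1.12 to -0.92). Its share of cells was 6.28% and 13.1%, a ratio of 0.479 (0.428 to 0.537). Without thinning the shares were 10.6% and 24.0%. Hdc was at 15.2 and 20.7 CPM, a log2 ratio of -0.45 (-0.50 to -0.39), and in 8.33% and 11.1% of cells (ratio 0.752, 0.676 to 0.836). Within each sex its log2 ratio was smaller, at -0.24 in female and -0.19 in male cells. The unnamed S100a9-led cluster, in which Hdc is frequent, held 108 knockout and 320 control cells.

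Ms4a2 gave 658 and 1012 UMIs, or 2.59 and 3.67 CPM, a log2 ratio of -0.50 (-0.65 to -0.36), and was in 1.61% and 2.18% of cells (ratio 0.740, 0.576 to 0.951). Within female cells the log2 ratio was 0.18 (-0.14 to 0.51) and within male cells -0.19 (-0.38 to -0.01), so it lay beyond 0.5 in neither sex. Mcpt8 gave 308 and 486 UMIs, or 1.21 and 1.76 CPM, a log2 ratio of -0.54 (-0.75 to -0.33), while its share of cells was 1.13% and 1.08%. A single control cell held 82 of the 486 UMIs. Without the top cell of each library the log2 ratio was -0.37, and it was 0.77 within female and -0.51 within male cells.

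The remaining 4 were rare. Prss34 gave 84 and 98 UMIs (knockout and control, as in all pairs of values here), a log2 ratio of -0.10 (-0.54 to 0.33). Fcer1a gave 24 UMIs in each library, a log2 ratio of 0.12 (-0.76 to 1.0). In male cells alone, with 21 and 14 of these UMIs, it was 1.72 (0.68 to 2.81), while female cells held 3 and 0. The other control UMIs lay in cells assigned to neither sex. One of these, with transcripts of both sexes, held 6 of the 24. With all cells of both sexes' transcripts removed, the log2 ratio over the library was 0.92 (-0.09 to 1.98). Gzmb gave 69 and 142 UMIs, a log2 ratio of -0.92 (-1.36 to -0.50), from 8 positive cells in each library after thinning, and of -1.76 within female and -0.42 within male cells. Cma1 gave 62 and 10 UMIs, but 51 of the 62 came from 1 knockout cell, and without the top cell of each library its log2 ratio went from 2.75 to 0.58 (-0.87 to 2.10).

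Within the mast- and basophil-like class Ms4a2, Mcpt8 and Hdc were lower in the knockout, while Cpa3 was level with the class as named here. Of the 6 with at least 20 CPM there in either library, 4 were lower by more than 0.5 (log2) and 0 higher, where 2.32% and 4.11% of all 6718 such genes were. The 4 were Mcpt8, Ms4a2, Prss34 and Hdc. Mcpt8 and Prss34 reached 20 CPM in the control alone and had to be lower to be counted, so nothing is read from the count, and the values of each gene follow.

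Ms4a2, the receptor's beta chain, was at 103 CPM in the knockout and 207 in the control, a log2 ratio of -1.01 (-1.17 to -0.85). It was found in 44.7% of 152 thinned knockout cells and 73.1% of 104 control cells, a ratio of 0.612 (0.495 to 0.757). The median cell was at 33.7 CPM against 175, and 25% of cells lay above 178 and 405 CPM. In erythroid cells, which should lack the gene, the share was 0.116% and 0.323%. Median depths there were 38524 and 40421 UMIs. Within female cells of the class (100 knockout, 21 control) the log2 ratio was -0.57 and within male cells (97 and 90) -1.07.

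Mcpt8 showed the largest difference of the 9 in the class, at 16.5 CPM in the knockout and 92.4 in the control, a log2 ratio of -2.49 (-2.84 to -2.14). Few cells carried it. After thinning it was in 2 of 152 knockout cells (1.32%) and 14 of 104 control cells (13.5%), a ratio of 0.098 (0.023 to 0.421), against 0.145% and 0.108% of erythroid cells. Thinning left out 50 knockout and 12 control cells of the class, and without it Mcpt8 was in 14 of 202 (6.93%) and 23 of 116 cells (19.8%), a smaller difference in the same direction. One control cell held 23.4% of its UMIs, and without the top cell of each library the log2 ratio was -2.51. Within female cells it was -1.18 and within male cells -2.21. Prss34, the other basophil protease, was at 14.4 and 21.1 CPM, a log2 ratio of -0.55 (-1.02 to -0.08), in 5.26% and 14.4% of cells after thinning and in 12.9% and 22.4% without. Its log2 ratio was 0.02 within female cells, -0.30 (-0.86 to 0.25) within male cells and -0.46 (-0.99 to 0.08) without the top cell of each library, so the difference was within counting error in each of these.

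Hdc was the most widespread member in the class, in 94.1% of knockout and 99.0% of control cells. Its level was 341 and 488 CPM, a log2 ratio of -0.52 (-0.61 to -0.42), with a median cell at 331 and 435 CPM. Cpa3 was in 86.2% and 90.4% of cells, at 527 and 522 CPM, a log2 ratio of 0.01 (-0.07 to 0.10). Its median cell was at 372 and 362 CPM. The equal level joined opposite directions by sex, 0.53 within female and -0.21 within male cells. It also moved with the processing. The log2 ratio of Cpa3 was 0.10 (0.02 to 0.19) without the top cell of each library and 0.19 (0.11 to 0.26) at resolution 0.6. With the class taken from marker scores it was -0.24 (-0.31 to -0.16).

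Il1rl1 in the class was at 49.7 and 64.7 CPM, a log2 ratio of -0.38 (-0.64 to -0.12), in 44.7% and 56.7% of cells, and its direction was the same within both sexes (-0.34 in female, -0.38 in male cells). Fcer1a, the receptor's alpha chain, gave 23 UMIs in the class of each library (4.36 and 6.07 CPM), too few to read a difference. Gzmb gave 17 and 20 UMIs there, 17 of the 20 in 1 cell, and its log2 ratio of -0.71 (-1.74 to 0.30) became 1.52 (-0.37 to 3.99) without the top cell of each library. It was -3.06 within female and 1.75 within male cells. Cma1 was at 0 UMIs in 202 and 116 cells, which allows up to 0.569 and 0.792 CPM.

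**Figure D2:**
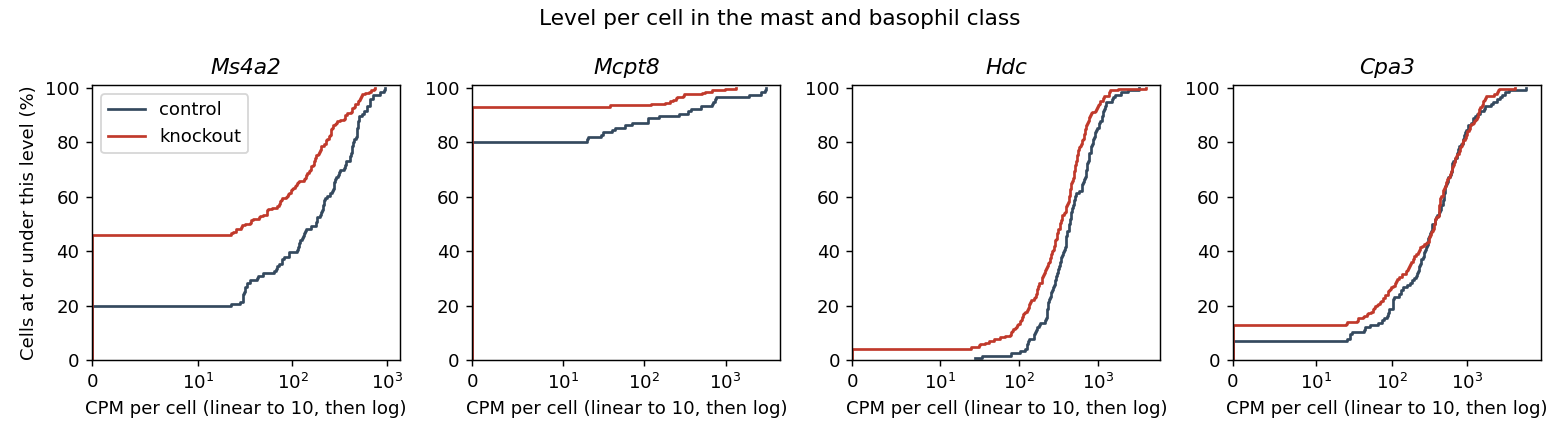
Cumulative share of cells (y axis, percent of the 202 knockout or 116 control cells of the mast- and basophil-like class) at or under a level per cell (x axis, CPM, linear to 10 and logarithmic above), with 1 line per library, for Ms4a2, Mcpt8, Hdc and Cpa3. The Ms4a2 lines are apart, with medians of 33.7 CPM in the knockout and 175 in the control, while the Cpa3 lines run close together, with medians of 372 and 362.

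The target transcript was also read in the class. Brd9 was at 11.4 and 29.8 CPM, a log2 ratio of -1.39 (-1.87 to -0.93), against -1.95 over the library.

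The members were also read together. Over all cells, at least 3 of the 9 genes were detected in 165 of 6389 knockout cells (2.58%) and 168 of 6566 control cells (2.56%), a ratio of 1.01 (0.816 to 1.25). Within the class, which was the larger one in the knockout, 60.5% of knockout and 82.7% of control cells reached 3 genes, a ratio of 0.732 (0.626 to 0.855). Over all cells, those with at least 5 of the genes were 8 and 19. No erythroid cell reached 3 genes, with 0 of 3453 and 0 of 3713, which allows a share of up to 0.087% and 0.081%. In GMP 9.53% and 8.50% did, and in megakaryocyte-erythroid progenitors (MEP) 1.23% and 2.76%. Single genes differed more: 16.9% of knockout and 25.6% of control cells held at least 1 of the 9. The direction was not the same in all classes, with 6.14% and 16.8% in erythroid cells and 20.5% and 29.2% in MEP. In GMP it was 74.4% and 66.0%, and in monocyte and dendritic cells 16.9% and 17.7%.

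In the class, Ms4a2, Cpa3 and Hdc were found together in 42.1% of knockout and 68.3% of control cells, a ratio of 0.617 (0.491 to 0.775). Cpa3 and Hdc without Ms4a2 were in 41.4% and 21.2%, a ratio of 1.96 (1.29 to 2.97). These are the remaining cells with Cpa3 and Hdc, so their share follows from the other shares and is not a separate result. Cpa3 with Hdc, whatever the Ms4a2 state, was in 83.6% and 89.4%. The interval of that ratio (0.848 to 1.03) holds 1, while the interval for all 3 genes does not.

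Over all cells, Hdc and Cpa3 were the most correlated pair, with a per-cell correlation of 0.64 in the knockout and 0.63 in the control, given as a description since all genes of a cell share its depth. Among Ms4a2-positive cells, 87.4% and 78.3% also held Hdc, 83.5% and 66.4% Cpa3, and 52.4% and 43.4% Il1rl1. The basophil proteases met in few cells. Mcpt8 and Prss34 were found together in 1 knockout and 7 control cells after thinning, and Mcpt8 with Ms4a2 in 3 and 14. Without thinning these were 7 and 13 cells (ratio of shares 0.549, 0.219 to 1.37) and 17 and 29 (0.597, 0.329 to 1.09), intervals that hold 1. Mcpt8 and Cma1 met in 0 cells of either library, also without thinning, out of 6754 and 6882.

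**Figure D3:**
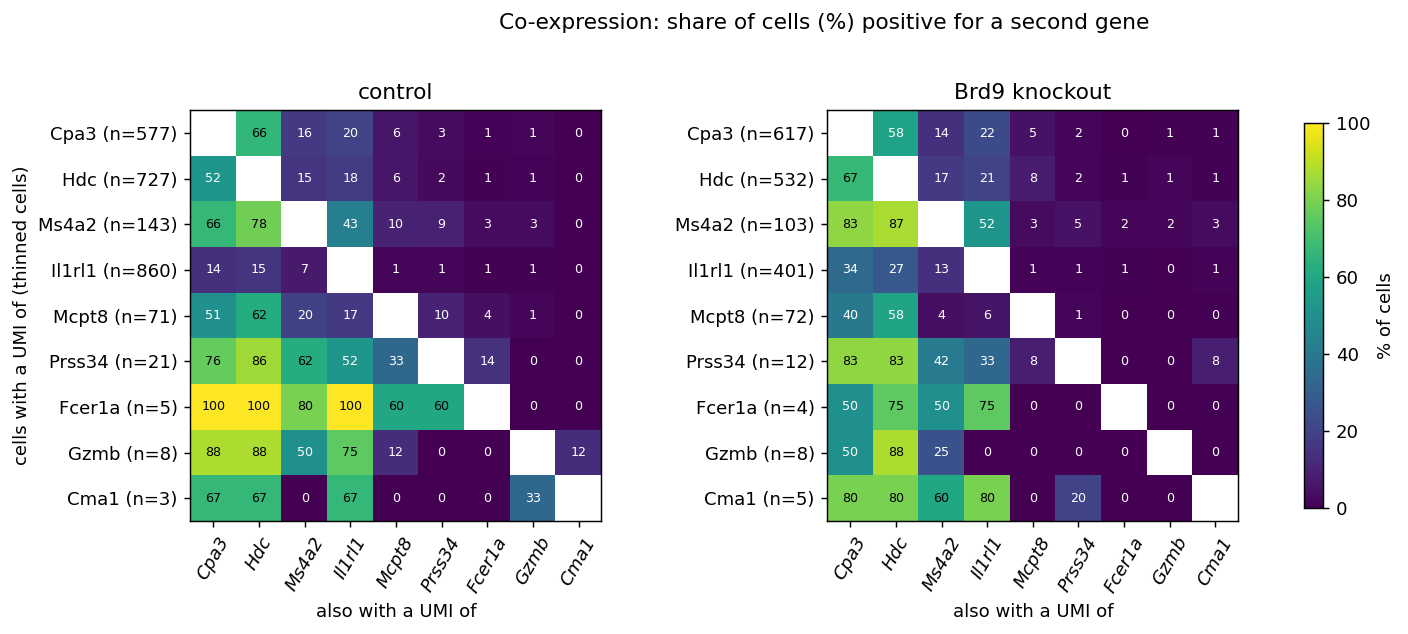
Share of thinned cells with a UMI of the row's gene that also have a UMI of the column's gene (colour and printed number, percent), with 1 panel per library and the number of positive cells beside each row. Of Ms4a2-positive cells, 87.4% in the knockout and 78.3% in the control were also Hdc-positive, while Mcpt8 and Cma1 share 0 cells.

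Outside the class, the early members Cpa3 and Hdc were followed in GMP, which held 466 knockout and 487 control cells. Of the 2 members with at least 20 CPM there, Cpa3 was higher in the knockout and none lower beyond 0.5, where 1.09% and 1.01% of all 6528 such genes were. Cpa3 was at 289 and 184 CPM, a log2 ratio of 0.65 (0.58 to 0.72), in 60.9% and 51.9% of cells, and it was higher within both sexes (0.33 in female, 0.88 in male cells). Hdc was at 85 and 88.1 CPM, a log2 ratio of -0.05 (-0.16 to 0.06). This even level depended on the makeup of the GMP. They joined a main cluster of 336 and 460 cells, led by Slco3a1 and Hmga2, with one led by the eosinophil granule genes Prg2 and Prg3, of 130 and 27 cells. In the main cluster Hdc was at 43.2 and 71.0 CPM, a log2 ratio of -0.72 (-0.88 to -0.56). The Prg2-led cluster gave 184 and 466 CPM, a log2 ratio of -1.34 (-1.53 to -1.15), so Hdc was lower in both. Cpa3 had a log2 ratio of 0.68 (0.60 to 0.75) in the main cluster and -0.18 (-0.38 to 0.03) in the Prg2-led one. The main cluster took its name by the weaker of the naming rules, with 1 marker of the list among its 30 leading genes, and at resolution 1.5 the cluster with the same leading genes (333 and 444 cells) stayed unnamed.

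Mcpt8 in GMP ran against its course in the class, at 11.1 CPM in the knockout and 3.99 in the control, a log2 ratio of 1.47 (1.05 to 1.92). It was in 9.53% and 5.23% of cells. The main GMP cluster gave 7.79 and 4.17 CPM, a log2 ratio of 0.90 (0.40 to 1.40), and the Prg2-led cluster gave 78 of the knockout UMIs and 0 of the control. The share of main-cluster cells with Mcpt8 was 6.69% and 5.47% after thinning, a ratio of 1.22 (0.694 to 2.16). Without thinning it was 8.63% and 10.4%, so the higher level there did not come with more positive cells. Monocyte and dendritic cells gave 6.62 and 2.32 CPM, a log2 ratio of 1.51 (0.75 to 2.30). GMP held 50% of all Mcpt8 UMIs in the knockout against 13.4% in the control. In the Prg2-led cluster Prg2 itself was at 241 and 1255 CPM. Il1rl1 was also higher in the knockout GMP, at 7.05 and 4.85 CPM, a log2 ratio of 0.54 (0.10 to 0.99). In the main GMP cluster alone it was 1.09 (0.63 to 1.55), while the Prg2-led cluster gave -4.36 (-7.66 to -1.96), from 2 and 7 UMIs. Within female cells of the GMP it was 2.80, from 59 and 3 UMIs, and within male cells 0.52 (-0.10 to 1.12).

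In MEP, with 925 knockout and 708 control cells, Ms4a2, Hdc and Il1rl1 were lower in the knockout, at far lower levels than in the class. Ms4a2 was at 0.529 and 2.11 CPM, a log2 ratio of -2.00 (-2.87 to -1.19), in 0.672% and 2.76% of cells. Its knockout share, from 6 of 893 cells, had an interval of 0.247% to 1.46%, which overlaps the 0.032% to 0.296% of knockout erythroid cells. The knockout levels had intervals that did not overlap, 0.308 to 0.847 CPM in MEP and 0.015 to 0.091 in erythroid cells. In MEP 1 knockout cell held 6 of the 17 UMIs. Hdc was at 3.39 and 5.95 CPM (log2 ratio -0.81) and Il1rl1 at 6.53 and 11.4 CPM (log2 ratio -0.81). Cpa3 was at 15.3 and 12.8 CPM, a log2 ratio of 0.26 (0.06 to 0.46), which was -0.33 (-0.67 to 0.02) within female and 0.38 (0.10 to 0.66) within male cells.

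**Figure D4:**
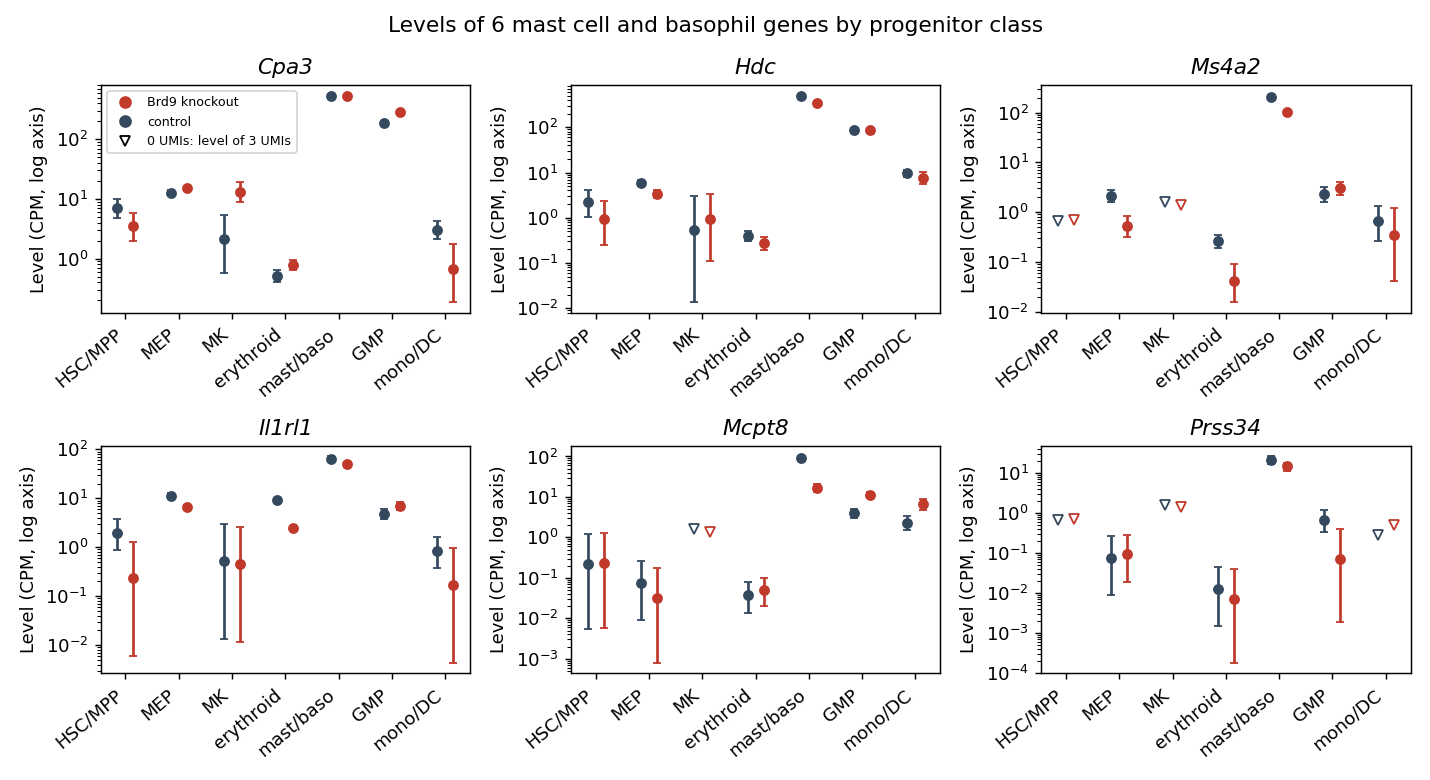
Level of 6 members (y axis, CPM on a log axis) by class (x axis) in the knockout and the control, as points with exact Poisson 95% intervals, where an open triangle stands for 0 UMIs and is drawn at the level of 3 UMIs. Cpa3 is at 289 and 184 CPM in GMP and 527 and 522 CPM in the mast- and basophil-like class, and Ms4a2 is at 103 and 207 CPM in that class and at or below 3.02 CPM in each of the other named classes.

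The order of levels over the named classes differed between members. Ms4a2 stood highest in the mast- and basophil-like class, followed by GMP and MEP, which in the control did not differ beyond their intervals (2.27, 1.60 to 3.13, against 2.11, 1.60 to 2.73), and by 0 UMIs in megakaryocytes and in stem and multipotent progenitors (HSC/MPP). Hdc followed the order mast- and basophil-like class, GMP, monocyte and dendritic cells (7.47 and 9.56 CPM), MEP. Cpa3 followed the order mast- and basophil-like class, GMP, MEP and, in the control, HSC/MPP (6.96 CPM). Its 13.2 CPM in knockout megakaryocytes came from 29 UMIs, 28 of them in 1 cell. Among unnamed clusters, Hdc was in 83.8% and 86.0% of cells of the S100a9-led cluster, at 160 and 197 CPM. The small Ifitm1-led cluster also lies outside these orders. From 48 and 47 cells it held 10.1% and 5.82% of Cpa3 UMIs and 4.41% and 3.75% of Ms4a2 UMIs. GMP, with 466 and 487 cells, held 6.38% and 3.66% of Ms4a2 UMIs.

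The small cluster led by Ifitm1, Pde7b, Trbc1 and Lmo4 held 48 knockout and 47 control cells and had a low median depth of 18570 UMIs. It was left unnamed by the naming rules, and Trbc1, a T cell receptor constant gene, stood among its leading genes. Kit was at 343 and 336 CPM in this cluster (69.4 and 100 in the class). Mpo, a granulocyte-monocyte marker, was at 6.38 and 96.2 CPM (1351 and 1686 in the class). Tpsb2 and Tpsab1, at 0 UMIs in the class, gave 5 and 8 UMIs in knockout cells of this cluster and 0 in control cells. A list of 20 mast cell and basophil markers, of which 13 reached 20 CPM there, summed to 2349 and 4000 CPM. In it, Gzmb gave 51 and 109 UMIs, Cma1 62 and 8, and Cpa3 891 and 377. A single knockout cell held 238 of the 891 Cpa3 UMIs. The class held 22.5% and 9.57% of all Il1rl1 UMIs from 202 and 116 cells. The small cluster held 12.05% and 5.47% of them from 48 and 47 cells. Cpa3 was in 16 of 27 and 15 of 21 thinned cells and Il1rl1 in 8 and 12 of them, so several members were frequent there beside Gzmb. At least 3 of the 9 genes were in 10 of 27 and 9 of 21 cells.

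Il1rl1 was read beyond the class, in the erythroid cells that held most of its control UMIs. In erythroid cells it was at 2.48 CPM in the knockout and 9.29 in the control, a log2 ratio of -1.90 (-2.08 to -1.74). It is the only member with at least 1 CPM in that class, and of 10890 such genes 1.74% were lower by more than 0.5 and 4.22% higher. The share of cells was 4.55% and 14.7%, a ratio of 0.309 (0.260 to 0.366). The control share is not a level common to all types, since it was 3.54% in HSC/MPP (median depth 19031 UMIs) and 1.36% in monocyte and dendritic cells (33922 UMIs). Within female cells the levels were 2.63 and 7.74 CPM (log2 ratio -1.56) and within male cells 1.95 and 9.88 (-2.34).

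The erythroid clusters differed in their makeup, so Il1rl1 was also read in each. The knockout lay more in clusters led by Hba-a1 (555 and 203 cells), Gm47283 (514 and 25) and Slc16a3 (416 and 12), and the control in those led by Nfia (51 and 577), Hemgn (64 and 533) and Hbb-bt (222 and 518). Of the 10 clusters with at least 50 cells in each library, 9 had a lower Il1rl1 share in the knockout, between 2.36% and 8.33% against 8.81% and 21.2% in the control. The exception was the Nfia-led cluster, with 22% of 50 knockout and 18.3% of 573 control cells. The other 3 clusters had fewer cells in 1 library and a lower knockout share as well.

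**Figure D5:**
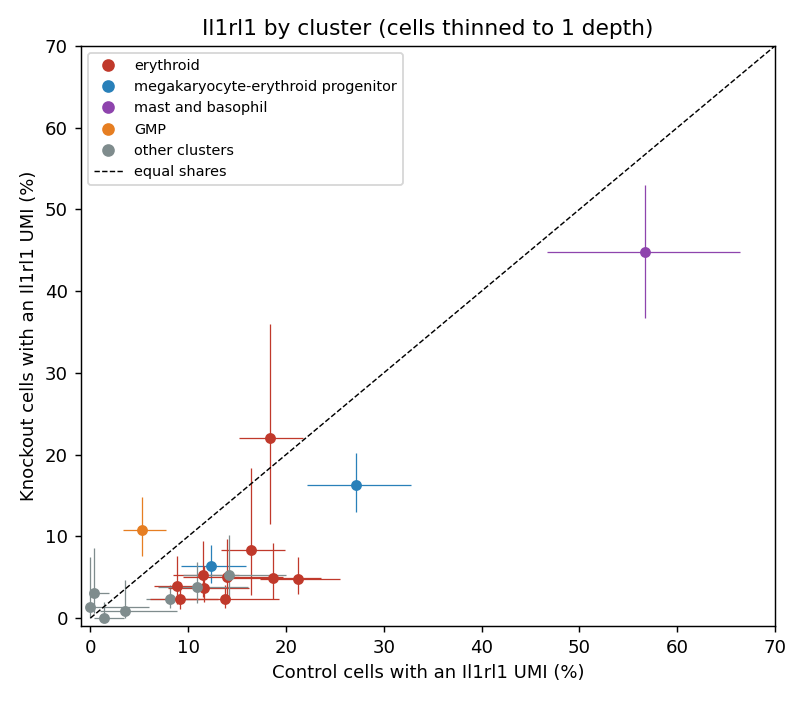
Share of thinned cells with an Il1rl1 UMI in the knockout (y axis, percent) against the control (x axis, percent), with 1 point per cluster of at least 50 cells in each library, coloured by class, exact 95% intervals as lines and a dashed line of equal shares. Of 10 erythroid points 9 lie below the dashed line, and the 1 above it is the Nfia-led cluster at 22% and 18.3%.

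Genes of the same pathways were read in the class from 5 lists, counted beyond 0.5 on the log2 scale at 20 CPM or more, where 4.11% of all genes were higher and 2.32% lower. These genes, unlike the 9, took part in the clustering, so their values are descriptions. Of 12 genes of IgE receptor signalling, 10 were tested, 3 were higher and 0 lower, with a median of 0.36. The 3 were Lat2, an adaptor below the receptor (57.3 and 28.8 CPM, log2 ratio 0.99), Plcg2, a phospholipase (88.2 and 60.2, 0.55), and Fcer1g, the gamma chain that Fc receptors share (513 and 350, 0.55). Lyn, the kinase that phosphorylates the receptor, was at 130 and 93.7 CPM. The gamma chain was thus higher in the knockout where Ms4a2, the beta chain of the same receptor, was lower.

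Of 16 granule genes, 6 were tested, with 1 lower and 0 higher. The 1 was Ctsg, a granule protease (70.7 and 103 CPM, log2 ratio -0.55). Srgn, the serglycin core that binds histamine and proteases, was at 1368 and 1749 CPM (-0.35), Vamp8, a protein of granule fusion, at 351 and 445 (-0.34), and Slc18a2, the transporter that loads amines into granules, at 67.1 and 57.6 (0.22).

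Of 15 lipid mediator and cytokine genes, 8 were tested, with 3 higher and 3 lower. Alox5, the first enzyme of leukotriene synthesis, was higher (226 and 124 CPM, log2 ratio 0.86), while the chemokine Ccl9 (31.5 and 132, -2.07), the growth factor Csf1 (29.0 and 75.5, -1.38) and the cytokine Il6 (13.7 and 24.3, -0.83) were lower. Il6 reached 20 CPM in the control alone, so it could be counted only as lower. Of 12 transcription factor genes, 9 were tested, with 1 higher, Runx1 (1663 and 1175, 0.50), and 0 lower. Gata2, which mast cells and basophils need, was at 410 and 302 CPM (0.44), Stat5b at 94.2 and 77.1 (0.29) and Tal1 at 41.3 and 58.3 (-0.50). Of 12 receptor genes, 7 were tested, with Csf2ra, a chain of the GM-CSF receptor (38.9 and 24.0, 0.69), and Cd200r3 (114 and 78.2, 0.55) higher and Kit, the stem cell factor receptor (69.4 and 100, -0.53), lower.

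Among the genes whose level per cell was most like the sum of the 9 were Lpcat2, with a correlation of 0.69 in the knockout and 0.68 in the control, Fam129a (0.69 and 0.67), Fcgr3 (0.71 and 0.66) and Lmo4 (0.66 and 0.62). Then came Tent5a, Gata2, Rab44, Cd63 and Fut8, the last with 0.63 and 0.60. These are descriptions over 6754 and 6882 cells, which share a library and vary in depth.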

How the data were processed

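The libraries were made with 10x Genomics 3' v3.1 chemistry, per the labels' protocols. The authors deposited UMI counts per gene and barcode, whole numbers with no normalization, made with Cell Ranger 7.2.0 on mm10, per the submitters' processing notes. The sources used here name no other step. Of 7289 knockout and 7399 control barcodes (271350214 and 292972312 UMIs), 7001 and 7100 had at least 1000 genes, 2000 UMIs and at most 10% mitochondrial UMIs. Scrublet (scanpy 1.11.5, expected rate 6%) removed 247 (3.53%) and 218 (3.07%) doublets. Both libraries were clustered together without the 9 genes (3000 variable genes, 30 components, 15 neighbours, Leiden resolution 1), leaving out 9 cells with at least 20 UMIs of hepatocyte genes, a limit chosen after seeing the data. Of 28 clusters, 6 stayed unnamed. Names came from 13 marker lists, by at least 2 list genes among a cluster's 30 leading genes or, failing that, by at least 50% of a list at 100 CPM or more, and mean only a likeness to that type. A class was compared where each library gave it at least 50 cells. UMIs were summed per class and library and scaled to CPM. Intervals at 95% are exact Poisson for levels, conditional exact for level ratios, Clopper-Pearson for shares and log-normal for share ratios, and a count of 0 was bounded at 3 counts. Thinning to 18501 UMIs, percentile 5, left out shallower cells, 50 knockout and 12 control cells of the mast- and basophil-like class among them. Cells were female with at least 3 Xist UMIs and at most 1 Y-linked UMI, and male with at most 1 Xist UMI. The calculation of ratios was checked on simulated counts. Of each pathway list up to 4 genes with at least 20 CPM and the largest ratios were named, and the 10 genes most like the sum of the 9 had at least 5 CPM in both libraries. Some genes that these rules name are not reported here. The members and lists were chosen with earlier results of these data known. The alternatives changed doublet and cell filters, thinning, the detection limit, resolution, naming, sex, the CPM total and the top cell.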

Additional observations from a re-analysis of the deposited data

Results flagged for a closer look

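For 3 genes the difference between knockout and control pointed opposite ways in different groups of cells, with intervals of counting error that did not include 0. These differences between groups were not tested, since each group is 1 library per genotype.

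Mcpt8 had a log2 ratio of -2.49 in the mast- and basophil-like class but of 1.47 in GMP and 1.51 in monocyte and dendritic cells. Over the library its log2 ratio was 0.77 in female and -0.51 in male cells.

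Cpa3 was higher in the knockout in GMP (log2 ratio 0.65), MEP (0.26), erythroid cells (0.59) and megakaryocytes (2.63), and lower in HSC/MPP (-0.99) and in monocyte and dendritic cells (-2.17). The megakaryocyte value rests on 1 cell with 28 of 29 UMIs, the HSC/MPP value on 15 and 32 UMIs, 17 of the latter in 1 cell, and that of monocyte and dendritic cells on 4 and 33 UMIs. In MEP the log2 ratio was -0.33 in female and 0.38 in male cells, and in erythroid cells 0.17 (-0.51 to 0.89) and 0.25 (-0.45 to 0.92).

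Il1rl1 was higher in the knockout in GMP (log2 ratio 0.54) and lower in the mast- and basophil-like class (-0.38), MEP (-0.81), erythroid cells (-1.90) and HSC/MPP (-3.07), the last from 1 and 9 UMIs.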

How the results depend on the processing

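No paired analysis was possible because each genotype had 1 library. Of 35 alternative values of the 4 summary results, 23 moved by less than their intervals and 0 reversed. A reversal, here and for single genes, was counted only where the interval of the main value left out no difference. Other changes of sign, such as those of Gzmb in the class, were not counted as reversals. The ratio of shares of cells with at least 3 of the 9 genes (1.01) was 1.31 in male cells and 0.433 for at least 5 genes. The log2 ratio of the summed level over the library (-0.02) was 0.024 with cells of both sexes' transcripts removed, 0.12 in female and 0.27 in male cells, so it took the other sign in all 3. In the mast- and basophil-like class (-0.41) it was -0.48 without doublet removal, -0.041 in female cells, -0.52 in male cells, -0.29 at resolution 0.6, -0.74 with the class taken from marker scores, and -1.05 without Cpa3 and Hdc, an alternative chosen after seeing the data. The ratio of class shares (1.77) was 2.42 by marker scores. Of 205 alternative values of single genes, 159 stayed within their intervals, 42 moved beyond them and 4 reversed. All 4 reversals were in female cells: the log2 ratio of Mcpt8 over the library (0.77), of Ms4a2 over the library (0.18) and of Prss34 in the class (0.025), and the ratio of shares of Ms4a2 (1.04). The cause was not tested. Depth limits Fcer1a, Gzmb and Cma1, with at most 142 UMIs in a library, and genotype cannot be told apart from library, embryo or the recombinase.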
